A study of Mus musculus with 6 samples.

Results

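A set of 10 genes for secreted matrix proteins was followed in sorted macrophages: *Sparc*, *Sparcl1*, *Thbs1*, *Postn*, *Tnc*, *Spp1*, *Fn1*, *Tgfbi*, *Ecm1* and *Gsn*. They were taken by symbol as secreted proteins of the matricellular kind or close to it, and all 10 were present among the 24061 gene symbols of the count table and passed the filter on low counts. Bulk RNA-seq had been performed on macrophages sorted as CD45+, CD11b+ and F4/80+ from the inguinal mammary glands of untreated female FVB/N mice, divided by the surface receptor Lyve-1 into a positive (Lyve-1+) and a negative (Lyve-1-) subset, with 3 libraries of each. Each library was made from pooled glands of 4 mice. Replicate 1 of each subset came from mice 6 weeks old, and replicates 2 and 3 came from mice 10 weeks old. The question put to these libraries was in which genes the macrophages with and without Lyve-1 differ.

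Matricellular proteins are secreted into the extracellular matrix, where they bind matrix fibers, growth factors and cell surface receptors and alter how cells adhere, rather than serving as the load-bearing scaffold. SPARC binds collagen and takes part in collagen fibril assembly, and its relative SPARC-like 1 (*Sparcl1*) is also called hevin. Thrombospondin 1, periostin, tenascin C and osteopontin (*Spp1*) are the classical members, while fibronectin (*Fn1*) also forms fibrils and gelsolin (*Gsn*) severs actin filaments inside cells and circulates as a secreted form. In many tissues, fibroblasts are a main source of *Sparc* and *Postn*, and macrophages can make *Fn1*, *Thbs1*, *Tgfbi* and *Spp1*.

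Library totals ran from 6478007 to 21406839 counts, and 3 counts, the limit that a count of 0 allows, corresponded to between 0.144 and 0.437 CPM (TMM-normalized counts relative to library size), for counting error only. *Lyve1*, which checks the sort, was at 1.43 to 7.43 CPM in the Lyve-1- libraries and 597 to 2352 CPM in the Lyve-1+ libraries. The macrophage genes *Csf1r*, *Cd68*, *Itgam*, *Ptprc* and *Emr1*, which encodes F4/80, were all detected in every library. Between 11958 and 20353 genes had a count, with the most in Lyve-1- replicate 3, the library with the lowest total. In bulk libraries, fewer cells of a type and less RNA per cell cannot be told apart.

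*Sparc*, *Postn* and *Tgfbi* had the lowest p-values of the 10, with none past the threshold and only *Sparc* without overlap between the subsets, and *Spp1* had levels that ran opposite to *Postn* across the libraries, so the sequences just upstream of these 4 genes are shown. Each is the 100 bases before a RefSeq transcription start (GRCm38.p6), written on the gene's own strand, with the letters TATAAA in capitals where present. The *Sparc* start in RefSeq lies inside the longer gene of GENCODE M21.

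*Sparc* (chr11:55420081-55420180, minus strand): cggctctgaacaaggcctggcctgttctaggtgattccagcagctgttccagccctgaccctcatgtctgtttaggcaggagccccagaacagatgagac
*Postn* (chr3:54361007-54361106, plus strand): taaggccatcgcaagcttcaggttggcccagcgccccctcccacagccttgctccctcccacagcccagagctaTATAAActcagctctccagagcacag
*Tgfbi* (chr13:56609486-56609585, plus strand): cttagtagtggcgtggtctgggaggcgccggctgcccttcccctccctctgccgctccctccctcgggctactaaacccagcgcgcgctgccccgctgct
*Spp1* (chr5:104435011-104435110, plus strand): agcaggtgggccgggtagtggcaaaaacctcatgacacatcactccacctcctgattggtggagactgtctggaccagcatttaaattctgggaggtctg

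The table of promoter windows held 12 windows for 7 of the 10 genes, with none listed for *Sparcl1*, *Thbs1* and *Fn1*. Over the 250 bases upstream of each start and on both strands, TATAAA was found in 5 of the 12 windows, or at 4 distinct sites since the overlapping windows of *Tnc* share theirs, against 12.4% of 32851 windows in the table. The *Postn* match began at position -26 from the start site. *Ecm1* also had the letters on its own strand close to the start. The *Spp1* window held its match at -211, outside the bases printed. Neither *Sparc*, *Tgfbi* nor *Gsn* had the letters in any window. The letters of an AP-1 site, TGACTCA, were found once among the 12 windows, in *Ecm1*, against 4.46% of all windows. GC content over the 250 bases was 54.0% for *Sparc*, 52.0% for the *Postn* window shown, 62.4% for *Tgfbi* and 43.6% for the *Spp1* window shown, where the median of all windows was 52.4%.

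The 10 genes differed widely in transcript level. Per kb of exonic sequence, the mean over the 6 libraries was highest for *Fn1*, the fibronectin gene, at 343 CPM per kb, above 99.4% of the 13261 genes that could be ranked. *Tgfbi*, which encodes the collagen-binding TGF-beta-induced protein, was next at 219.8 CPM per kb, followed by *Thbs1* at 120.3 and *Gsn* at 99.0. *Sparc*, *Postn*, *Ecm1*, *Spp1* and *Sparcl1* formed a middle group with means between 35.1 and 60.0 CPM per kb. *Tnc* was far below the rest at 1.86 CPM per kb, above 29.5% of the ranked genes.

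This order held in most libraries at the top and not in the middle. *Tgfbi* exceeded *Thbs1* in all 6 libraries and *Sparcl1* exceeded *Tnc* in all 6, while *Fn1* exceeded *Tgfbi* in 5, the exception being Lyve-1+ replicate 1. *Postn* exceeded *Ecm1* in 1 of 6 libraries although its mean was higher, and *Spp1* exceeded *Sparcl1* in 3 of 6, so the middle group has no order that held beyond the spread between libraries. Together the 10 genes took between 0.455% and 0.975% of each library's counts. *Fn1* alone gave between 38.2% and 70.3% of that sum.

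**Figure D1:**
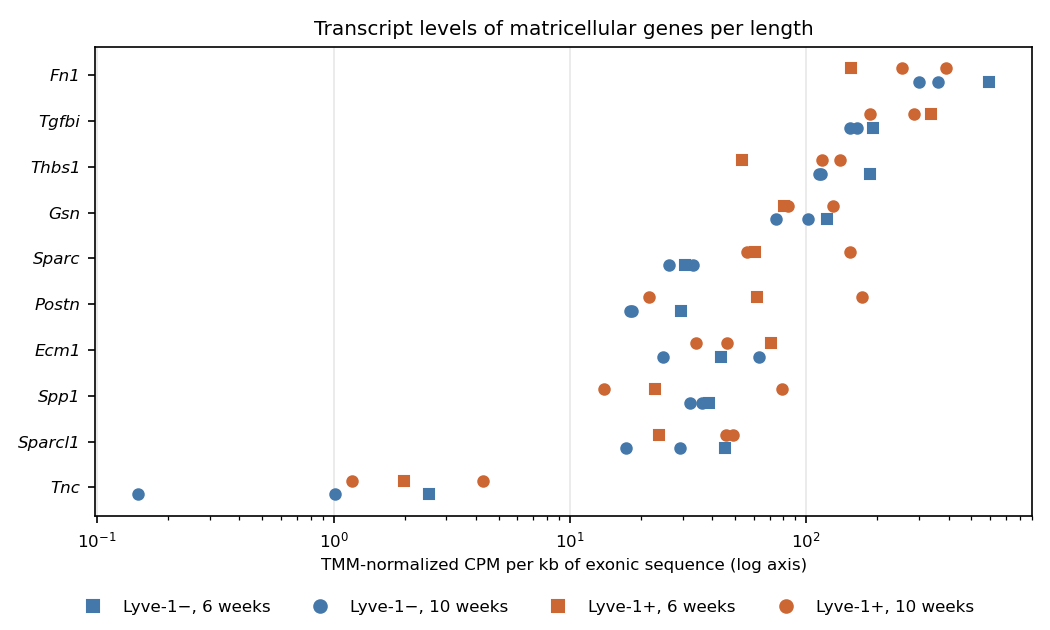
Levels of the 10 genes per kb of exonic sequence, on a log axis in TMM-normalized CPM per kb, with 1 point per library. Blue marks Lyve-1- and orange Lyve-1+ libraries, squares 6 weeks and circles 10 weeks. *Fn1* and *Tgfbi* lie highest and *Tnc* lowest, and for *Sparc* all orange points lie to the right of all blue points.

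*Sparc* was the only gene of the 10 whose subsets did not overlap. The gene (mm10, chromosome 11, 55394500 to 55423183, minus strand) was at 116, 126 and 99.9 CPM in Lyve-1- replicates 1, 2 and 3. In the Lyve-1+ subset it was at 229, 214 and 578 CPM. The lowest Lyve-1+ library was 1.69 times the highest Lyve-1- library, and Lyve-1+ replicate 3 was 2.61 times the mean of the other Lyve-1+ libraries. The means were 114 ± 13.3 CPM (SD, n = 3 pools) and 340.2 ± 206 (SD, n = 3), with a fitted log2 difference of 1.57 ± 0.36 (SE, edgeR adjusted p = 0.0799). This did not pass the threshold of 0.01, and DESeq2 gave 1.56 (adjusted p = 0.0114). With Lyve-1+ replicate 3 left out the log2 difference was 0.93 (edgeR adjusted p = 0.286), and with Lyve-1+ replicate 2 left out it was 1.81 and passed (edgeR adjusted p = 0.00508). The study's text names *Sparc* from these same libraries, so its order here is no separate evidence.

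The other SPARC family member among the 10 differed less. *Sparcl1* (chromosome 5, 104079111 to 104113733), an anti-adhesive glycoprotein gene, was at 133, 86.2 and 50.7 CPM in the Lyve-1- libraries and at 70.1, 144 and 134 CPM in the Lyve-1+ libraries. The subsets overlapped, with the 6-week libraries in the opposite order to the 10-week libraries. Its log2 difference was 0.37 ± 0.39 (SE, edgeR adjusted p = 1).

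Periostin and the TGF-beta-induced protein are close relatives that share fasciclin-type domains and bind collagen and integrins. *Postn* (chromosome 3, 54361109 to 54391037) was at 258, 159 and 156 CPM in the Lyve-1- libraries and at 538, 188 and 1491 CPM in the Lyve-1+ libraries. Lyve-1+ replicate 3 was 4.11 times the mean of the other Lyve-1+ libraries, and Lyve-1+ replicate 2 lay below Lyve-1- replicate 1. *Postn* had the largest log2 difference of the 10, 1.95, with a standard error of 0.70 (edgeR adjusted p = 0.516). It was 0.90 with Lyve-1+ replicate 3 left out and 2.40 with Lyve-1+ replicate 2 left out, where it passed the threshold (edgeR adjusted p = 0.00135).

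*Tgfbi* (chromosome 13, 56609523 to 56639562) was at 722, 578 and 616 CPM in the Lyve-1- libraries and at 1273, 702 and 1081.5 CPM in the Lyve-1+ libraries. Lyve-1+ replicates 1 and 3 were above every Lyve-1- library, and replicate 2 lay just below Lyve-1- replicate 1. The means of 639 ± 74.96 CPM (SD, n = 3) and 1019 ± 291 CPM (SD, n = 3) gave a log2 difference of 0.67 ± 0.26 (SE, edgeR adjusted p = 0.464). Its log2 difference kept between 0.49 and 0.86 over all 15 alternatives, the narrowest range among the genes with an unadjusted p under 0.05.

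Fibronectin and thrombospondin 1, the most abundant adhesive glycoprotein genes here with *Tgfbi*, had lower means in the Lyve-1+ subset. *Fn1* (chromosome 1, 71585520 to 71653200) was at 6957, 4227 and 3506 CPM in the Lyve-1- libraries and at 1809, 2959 and 4571 CPM in the Lyve-1+ libraries. Both the highest and the lowest values were in 6-week libraries, and the 10-week libraries of the subsets overlapped. The means were 4897 ± 1820.5 CPM (SD, n = 3) and 3113 ± 1388 CPM (SD, n = 3), with a log2 difference of -0.65 ± 0.34 (SE, edgeR adjusted p = 0.742). With the 10-week libraries alone it was -0.05.

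*Thbs1* (chromosome 2, 118111876 to 118127133), whose product binds CD47 and CD36 and activates latent TGF-beta, was at 1129, 685 and 699.6 CPM in the Lyve-1- libraries. It was at 324, 839.6 and 706 CPM in the Lyve-1+ libraries, so that here too the 6-week libraries held the extremes. The log2 difference was -0.43 ± 0.33 (SE, edgeR adjusted p = 1) and 0.15 with the 10-week libraries alone.

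*Tnc* had the least even levels of the 10. The gene (chromosome 4, 63959785 to 64047015), an anti-adhesive hexameric glycoprotein gene, was counted 235, 13 and 54 times in the Lyve-1- libraries and 202, 697 and 74 times in the Lyve-1+ libraries. In CPM this was 19.7, 1.15 and 7.87 against 15.4, 33.4 and 9.32, a ratio of 28.9 between the highest and the lowest library. Its log2 difference of 1.01 had a standard error of 0.96 (edgeR adjusted p = 1).

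*Spp1* (chromosome 5, 104435118 to 104441050), which encodes a phosphorylated ligand of integrins and CD44, was at 64.1, 60.0 and 53.1 CPM in the Lyve-1- libraries and at 37.9, 129.9 and 23.1 CPM in the Lyve-1+ libraries. The Lyve-1- libraries lay close together, with an SD of 5.58 CPM, and all 3 lay within the range of the Lyve-1+ libraries, whose SD was 57.9 CPM. Lyve-1+ replicate 2 was 4.26 times the mean of the other Lyve-1+ libraries. The log2 difference was 0.11 ± 0.53 (SE, edgeR adjusted p = 1) and -0.97 without that library.

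*Ecm1* and *Gsn* had subset means that differed by less than their spread. *Ecm1* (chromosome 3, 95734147 to 95739569), whose product binds perlecan and fibulins, was at 109.8, 159 and 62.5 CPM in the Lyve-1- libraries and at 179.6, 86.1 and 116 CPM in the Lyve-1+ libraries (log2 difference 0.20 ± 0.38, SE, edgeR adjusted p = 1). *Gsn* (chromosome 2, 35256380 to 35307892) was at 388, 322 and 234 CPM against 255, 410.3 and 265 CPM (log2 difference -0.02 ± 0.29, SE, edgeR adjusted p = 1). *Gsn* was the steadiest of the 10, with a ratio of 1.75 between its highest and lowest library.

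**Figure D2:**
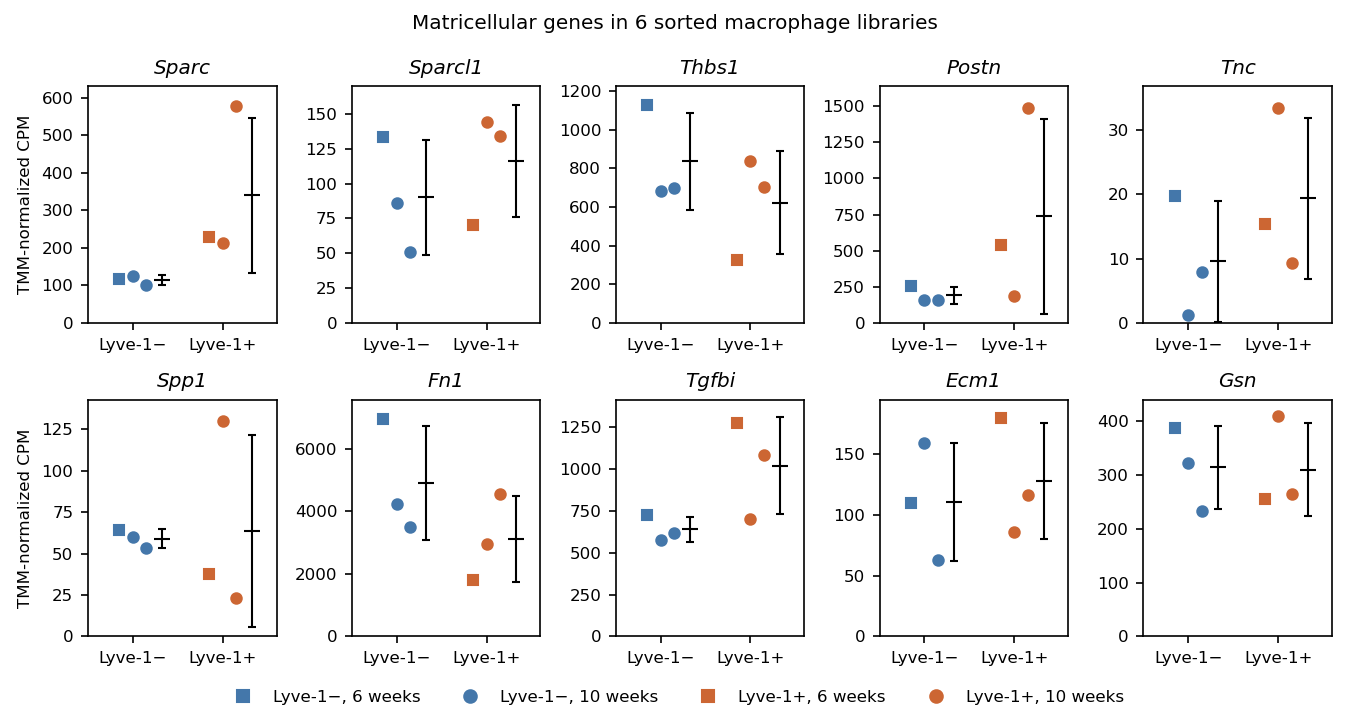
TMM-normalized CPM of each gene in the 6 libraries (blue Lyve-1-, orange Lyve-1+, squares 6 weeks, circles 10 weeks), with the mean and SD of each subset in black. *Sparc* is the gene whose subsets are apart, and Lyve-1+ replicate 3, the rightmost orange point, is highest for *Sparc* and *Postn*.

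Among the 10 genes, 7 had a higher and 3 a lower mean in the fit, with a median log2 difference of 0.28 where the median of all 13348 genes tested was -0.01. By edgeR 0 of the 10 were called (adjusted p under 0.01, with a log2 change between 1 and 10 in size), where 0.112% of all genes tested were called, and 0 had an adjusted p under 0.05, where 0.629% did. DESeq2 also called 0 of them at the first limit and 1, *Sparc*, at the second. Over all 24061 symbols it gave 148 and 333 genes at these limits. At an unadjusted p under 0.05, edgeR and DESeq2 each gave 3, *Sparc*, *Postn* and *Tgfbi*, against 7.69% of all genes tested with edgeR. The count of 1 gene with every Lyve-1+ library higher compares with 7.82% of all genes, and 0 of the 10 had every Lyve-1+ library lower, as 6.5% of all genes did. In either direction, 14.3% of genes had subsets that did not overlap.

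**Figure D3:**
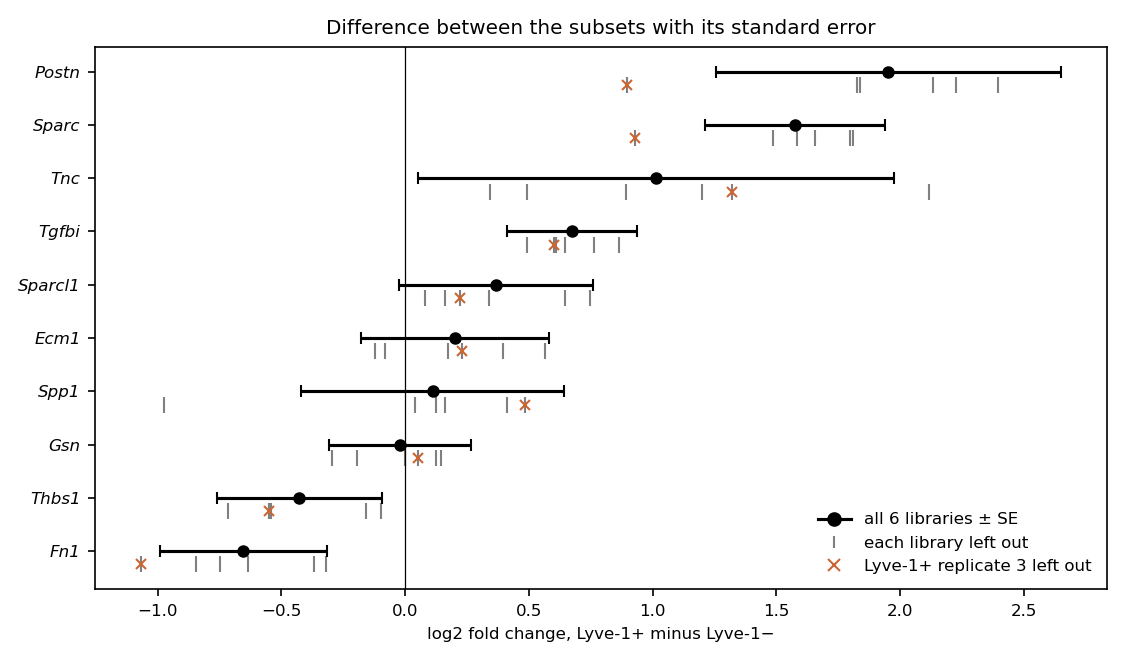
Log2 fold change of each gene between the subsets, with the standard error (black), and the value with each library left out in turn (grey ticks). The orange cross leaves out Lyve-1+ replicate 3, which moves *Postn* from 1.95 to 0.90 and *Sparc* from 1.57 to 0.93.

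The summed level of fibroblast markers ran with those of *Sparc*, *Postn* and, less closely over all 6 libraries, *Tgfbi*. A list of 15 fibroblast genes, among them *Pdgfra*, *Dcn*, *Lum* and the collagen I, III and VI genes, summed to 1636, 1449 and 1280.1 CPM in Lyve-1- replicates 1, 2 and 3 and to 2914, 2181 and 8171 CPM in the Lyve-1+ libraries. Of the 15 genes, 14 had a higher mean in the Lyve-1+ subset, as 49.4% of all genes tested did. Every Lyve-1+ library was higher for 8 of the 15, against 7.82% of all genes tested. With edgeR 0 had an adjusted p under 0.05 and 9 an unadjusted p under 0.05, against 7.69% of all genes tested for the latter. No gene of the list was at 0 in all libraries. In Lyve-1+ replicate 3, *Col3a1*, *Col1a1* and *Col1a2* stood at 3567, 1576 and 1120 CPM, the largest parts of its sum. *Dpt*, *Pi16* and *Mfap5* were lowest of the Lyve-1+ libraries there, at 26.7, 8.57 and 3.02 CPM. The other genes of the list were highest there. The median log2 difference of the list was 1.68 and 0.80 without Lyve-1+ replicate 3.

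Over the 6 libraries the log2 level of *Sparc* had a Pearson correlation of 0.984 with that of this sum, and of 0.948 without Lyve-1+ replicate 3, given as a description. Divided by this summed level, a scale chosen after the values were seen, *Sparc* lay between 0.0712 and 0.0870 in the Lyve-1- libraries and between 0.0707 and 0.0979 in the Lyve-1+ libraries, and the subsets overlapped. *Postn* lay between 0.110 and 0.158 and between 0.0862 and 0.185, also overlapping. *Fn1* and *Thbs1* had every Lyve-1+ library lower on this scale, at 0.559 to 1.36 against 2.74 to 4.25 for *Fn1* and 0.0864 to 0.385 against 0.473 to 0.690 for *Thbs1*. The divisor was itself higher in every Lyve-1+ library, and 32.7% of all genes tested had every Lyve-1+ library lower on this scale, so nothing particular to *Fn1* and *Thbs1* is read from it. Fibroblasts lack CD45, and the CD45+CD11b+F4/80+ gate is meant to remove them. The part of fibroblast RNA in these differences was not tested. The macrophage genes summed to between 4998 and 8259 CPM over all libraries, with overlapping subsets.

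**Figure D4:**
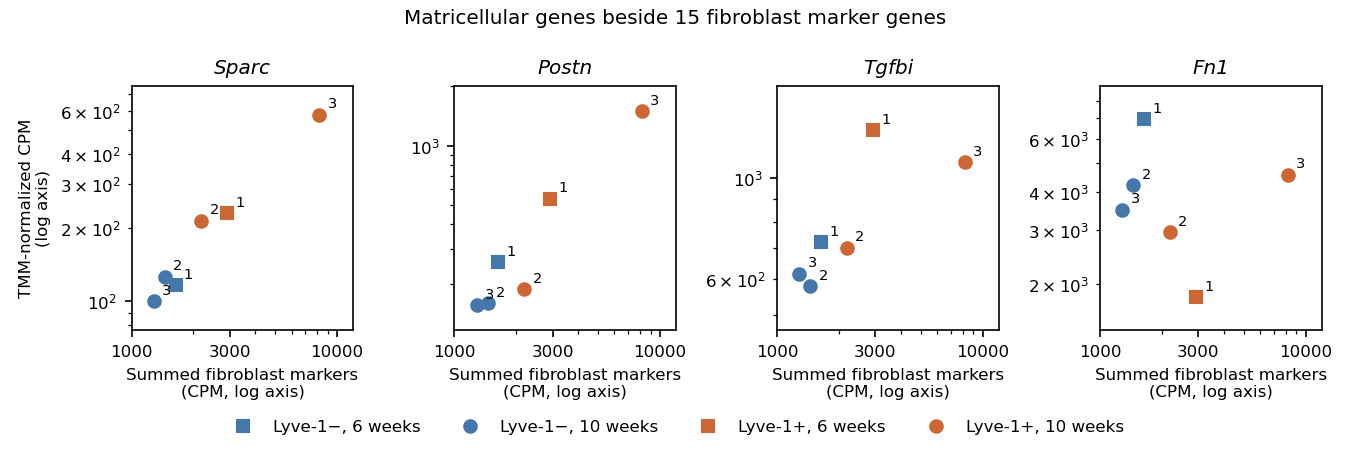
CPM of *Sparc*, *Postn*, *Tgfbi* and *Fn1* (vertical, log axis) against the summed CPM of 15 fibroblast marker genes (horizontal, log axis) in each library, numbered by replicate, with colors and shapes for subset and age. Lyve-1+ replicate 3 lies farthest right, at 8171 CPM, and highest for *Sparc* and *Postn*, while for *Fn1* the highest library is Lyve-1- replicate 1.

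The genes whose log2 CPM followed each of the 10 most closely over the 6 libraries were found among 8486 other genes. All of the closest had a Pearson correlation of at least 0.946, which with 6 libraries that differ in depth and in fibroblast markers is a description only. For *Sparc* they were *Col1a2*, a fibrillar collagen gene (r = 0.997), *Smg9* (0.984) and *Serpinf1*, which encodes a protein secreted by stromal cells (0.98). *Postn* was followed most closely by *Dsel*, *Atg7* and *Col1a1* (0.979, 0.97 and 0.968), with *Col1a1*, *Col1a2* and *Serpinf1* all on the fibroblast list, and *Tgfbi* by *Gfra2*, *Ccl24* and *Klf4* (0.993, 0.993 and 0.99). *Thbs1* was closest to the coagulation factor gene *F10*, *Errfi1* and *Prdx6* (0.991, 0.98 and 0.978), and *Fn1* to *Cnbp*, *Mrpl39* and *Fem1c* (0.99, 0.989 and 0.979). *Sparcl1* was closest to *Fmo1*, *Rfwd3* and *Rgs16* (0.985, 0.977 and 0.966), and *Gsn* to *Gpsm2*, *Ei24* and the fatty acid-binding protein gene *Fabp4* (0.985, 0.984 and 0.983). For *Ecm1* they were *Wbp1l*, *Gch1* and *Jmy* (0.986, 0.985 and 0.98), for *Tnc* they were *Prkci*, *Pfdn2* and *Adprh* (0.983, 0.982 and 0.982), and for *Spp1* they were *Tmem189*, *Smc2* and *Rps6kb1* (0.96, 0.947 and 0.946). Among the 10 themselves the highest correlations were between *Sparc* and *Postn* (0.899), *Thbs1* and *Fn1* (0.867) and *Postn* and *Tgfbi* (0.853), and the lowest was between *Postn* and *Spp1* (-0.801).

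Relatives of the 10 genes were listed by family. Of 46 listed genes, 45 were in the table and 35 could be tested, 19 with a higher and 16 with a lower mean in the Lyve-1+ subset and a median log2 difference of 0.18. With edgeR, 0 had an adjusted p under 0.05 and 5 an unadjusted p under 0.05, against 7.69% of all genes tested for the latter. *Svil* was called by DESeq2 and by edgeR without a filter on low counts. Every Lyve-1+ library was higher for 4 of the 35 (*Fstl1*, *Thbs2*, *Cyr61* and *Efemp1*) and lower for 3 (*Svil*, *Comp* and *Nov*). Among all genes tested these shares were 7.82% and 6.5%.

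In the SPARC family, *Fstl1*, a secreted glycoprotein gene of stromal cells, was at 84.7, 63.6 and 31.6 CPM in the Lyve-1- libraries and 88.6, 101.7 and 164 CPM in the Lyve-1+ libraries, with a log2 difference of 0.98 (edgeR adjusted p = 0.521). *Spock2* was low, between 0.0840 and 9.33 CPM over all libraries. Among the thrombospondins, *Thbs2*, an inhibitor of angiogenesis, was at 33.5, 43.4 and 50.002 CPM against 68.3, 71.4 and 143.6 CPM, with a log2 difference of 1.16 ± 0.39 (SE, edgeR adjusted p = 0.333). *Comp*, a cartilage thrombospondin, was at 5.69 to 10.1 CPM in the Lyve-1- libraries and at 0 to 0.767 CPM in the Lyve-1+ libraries (edgeR adjusted p = 0.778). The matrix tenascin *Tnxb* was at 17.1 to 62.2 CPM against 34.1 to 82.1 CPM, and *Tnn* reached 12.5 CPM in a Lyve-1- library.

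*Cyr61*, a heparin-binding CCN protein gene, was at 4.71, 14.9 and 13.6 CPM in the Lyve-1- libraries and 29.7, 33.5 and 66.5 CPM in the Lyve-1+ libraries, the largest log2 difference of the relatives with a mean of at least 10 CPM, 1.97 ± 0.62 (SE, edgeR adjusted p = 0.271). *Nov*, of the same family, was at 2.02 to 5.77 CPM against 0 to 1.198 CPM. Among the fibulins, which bind elastic fibers and basement membranes, *Fbln2* had a log2 difference of 1.36 (edgeR adjusted p = 0.454) and *Efemp1* of 1.95 (edgeR adjusted p = 0.96). The fibrillin gene *Fbn1* had 0.87 (edgeR adjusted p = 0.701) and *Vtn*, the vitronectin gene, 1.51 with a standard error of 1.46. The bone and tooth relatives of *Spp1* (*Ibsp*, *Dmp1*, *Dspp* and *Mepe*) could not be tested, as they did not pass the filter on low counts.

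The gelsolin relative *Svil*, which encodes the membrane-linked actin-binding protein supervillin, was at 521, 347 and 281 CPM in the Lyve-1- libraries and 148, 176 and 173 CPM in the Lyve-1+ libraries. Its log2 difference was -1.21 ± 0.29 (SE, edgeR adjusted p = 0.0873), whereas *Gsn* itself had -0.02. *Vill* was at 0 in 3 libraries and at most 17.0 CPM.

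Receptors for these proteins had lower means in the Lyve-1+ subset more often than higher ones. Of 20 receptor genes, 19 could be tested, 6 with a higher and 13 with a lower mean and a median log2 difference of -0.39. Of all genes tested, 49.4% had a higher mean. The integrins held 8 lower and 2 higher, and the other receptors 5 lower and 4 higher, with a median of -0.14. With edgeR 0 of the 19 had an adjusted p under 0.05 and 6 an unadjusted p under 0.05, against 7.69% of all genes tested for the latter. DESeq2 called none of them and gave *Stab1* an adjusted p under 0.05. With edgeR *Stab1* was called without a filter on low counts, and *Itgav* was called with Lyve-1+ replicate 2 left out. *Itgav*, the integrin subunit shared by receptors for osteopontin, fibronectin and periostin, was at 99.6, 136 and 81.8 CPM in the Lyve-1- libraries and 26.2, 70.6 and 16.8 CPM in the Lyve-1+ libraries (log2 difference -1.48 ± 0.48, SE, edgeR adjusted p = 0.305). *Itga4*, a fibronectin receptor subunit, was at 359, 319 and 304 CPM against 164, 252 and 209.8 CPM (log2 difference -0.65, edgeR adjusted p = 0.518). *Cd44*, which binds hyaluronan and osteopontin, was at 1245.5, 1695 and 1381 CPM against 452, 989.9 and 1038 CPM (log2 difference -0.80, edgeR adjusted p = 0.422).

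*Stab1*, which encodes a scavenger receptor of macrophages that takes up extracellular SPARC, was at 349, 258 and 169.7 CPM in the Lyve-1- libraries and 837, 574 and 406 CPM in the Lyve-1+ libraries. All Lyve-1+ libraries were higher, and the log2 difference was 1.23 ± 0.32 (SE, edgeR adjusted p = 0.145). Unlike *Sparc*, it was highest in Lyve-1+ replicate 1 and lowest of that subset in replicate 3.

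**Figure D5:**
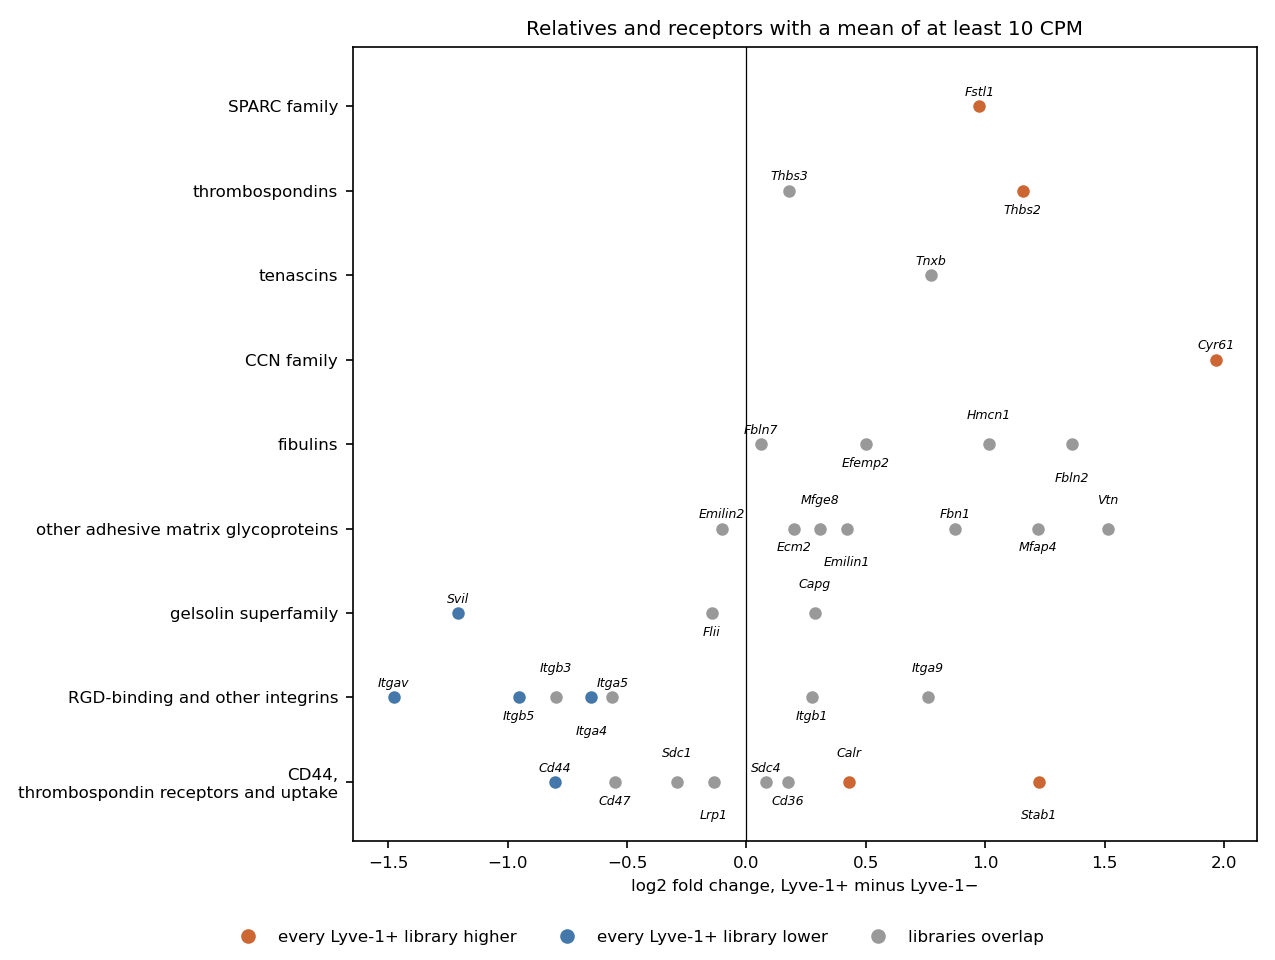
Log2 fold change between the subsets for relatives and receptors with a mean of at least 10 CPM, by family (*Calr* and *Itgb5* are named after their values were seen). Orange points had every Lyve-1+ library higher, blue points every Lyve-1+ library lower, and grey points overlapped, with *Cyr61*, *Stab1*, *Thbs2*, *Fstl1* and *Calr* in orange and *Itgav*, *Svil*, *Itgb5*, *Cd44* and *Itga4* in blue.

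Libraries at 10 weeks were then set against those at 6 weeks in a fit that also held the subset, and none of the 10 genes was called for age. With edgeR 0 of the 10 had an adjusted p under 0.05, where 0.0225% of all genes did, and 0 had an unadjusted p under 0.05, where 3.33% did. Their log2 differences with age ran from -1.02 (*Tnc*, standard error 1.09) to 0.38 (*Spp1*, standard error 0.60). With 1 pool of each subset at 6 weeks, age and the pool cannot be told apart.

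Whether the subsets differed otherwise at 10 weeks than at 6 weeks was tested with an interaction term. For *Fn1* the subset difference was higher at 10 weeks than at 6 weeks by a log2 value of 1.91 ± 0.46 (SE, edgeR unadjusted p = 0.000723, adjusted p = 0.477). *Thbs1* had 1.96 ± 0.50 (SE, edgeR unadjusted p = 0.00125, adjusted p = 0.549) and *Sparcl1* 1.95 ± 0.73 (SE, edgeR unadjusted p = 0.0164, adjusted p = 0.957). These were the 3 of the 10 genes with an unadjusted p under 0.05, where 4.59% of all genes had one, and 0 had an adjusted p under 0.05, where 0.00749% did. *Sparc* had 0.83 ± 0.75 (SE) and *Tgfbi* -0.24 ± 0.52 (SE).

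Counts on some of these genes may include reads of overlapping genes. Exons of *Fn1*, *Thbs1* and *Tnc* share 292, 208 and 176 bp with genes on the opposite strand in GENCODE M21, of 11685, 6073 and 7772 bp in all, and exons of *Spp1* share 309 of 1648 bp with *Gm42793* on the same strand. *Ecm1* holds the microRNA gene *Mir7014* within its exons over 63 bp. No exon of *Sparc*, *Postn* or *Tgfbi* overlapped another gene.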

How the data were processed

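The data are 6 RNA-seq libraries of macrophages sorted from mouse mammary glands, each a pool of 4 mice. Library preparation used a stranded total RNA kit. The authors mapped paired 50-bp reads to mm10 with HISAT2 (2.0.2) and used featureCounts (1.5.0) to count reads for each gene symbol. The strand setting of the counting is not given in the sources used here. The deposited values are raw counts without normalization. The study's methods also name a 6-week sample that was set aside before testing, which was not analysed here. The methods describe the samples as biological replicates, so p-values measure the spread between pools rather than between single mice.

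From the counts, differential expression was tested in R 4.3.3 with edgeR 4.0.16 (filterByExpr, TMM, robust quasi-likelihood F test, two-sided, Benjamini-Hochberg adjustment over all genes tested). The subset was the only term, and age was added for the age and interaction tests. Standard errors were derived from the test, as the size of the log2 difference divided by the square root of its F statistic. A call required an adjusted p under 0.01 and a log2 change between 1 and 10 in size. Levels are TMM-normalized CPM, and levels of different genes were compared per kb of the union of GENCODE M21 exons. DESeq2 1.42.0, other scalings, other filters, a block, an age term, 10-week libraries alone, removal of ribosomal RNA and mitochondrial genes, and each library left out in turn were the alternatives. The test was tried on simulated data in which 200 genes had a log2 change of 2. With the spread estimated from these libraries, edgeR called 39 of them with 1 false call, and DESeq2 79 with 22 false calls. With a reduced spread they called 184 and 188. A gene that was not called is thus not shown to be unchanged. The 10 genes, the lists of relatives and receptors and the marker lists were chosen with earlier results of these data known, and no test was run over a list. Named in the text were the 10 genes, from each list of relatives or receptors the genes with an adjusted p under 0.05 or else the 2 with the smallest p, and the 3 genes most like each of the 10 by Pearson correlation of log2 CPM (prior count 2) among genes of at least 10 CPM. Other names were picked with their values in view, as the text says. Of the table's symbols, 22749 matched GENCODE directly, 935 by way of RefSeq synonyms, and 377 had no match. Protein sequences were not analysed here.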

Additional observations from a re-analysis of the deposited data

Results flagged for a closer look

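In *Sparcl1*, *Thbs1* and *Tnc*, the 6-week libraries differed in the opposite direction to all 10-week libraries, lower in Lyve-1+ cells at 6 weeks and higher at 10 weeks. The change of the subset difference between the ages was 1.95 for *Sparcl1*, 1.96 for *Thbs1* and 2.61 for *Tnc* on the log2 scale. The interaction test gave edgeR adjusted p-values of 0.957, 0.549 and 0.976, so none passed correction. With the 10-week libraries alone, 4558 of 13348 genes tested had subsets that did not overlap. How many of those also ran the other way at 6 weeks was not counted, so nothing particular to these 3 genes is read from it. In *Thbs1* the 10-week libraries were barely apart, at 706 CPM for the lowest Lyve-1+ and 699.6 CPM for the highest Lyve-1- library. There was 1 library of each subset at 6 weeks, and whether this reflects age or those pools cannot be told apart.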

How the results depend on the processing

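Of 150 refitted log2 fold changes of the 10 genes, 144 kept their main call and, where their sign differed, moved by less than the standard error. *Sparc* passed the threshold without a filter on low counts (log2 fold change 1.56), and with each library left out it ranged from 0.93 to 1.81. *Postn* ranged from 0.90 to 2.40 and *Spp1* from -0.97 to 0.48 in those fits. With the 10-week libraries alone *Thbs1* was at 0.15 and *Gsn* at 0.27. Over all 15 alternatives the adjusted p of *Sparc* ran from 0.000228 to 0.305.

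The count of genes called, 15, was 148 with DESeq2, 188 without a filter, 32 with at least 10 counts in every library, 140 with the replicate block, 58 with age as a covariate, and 1 (without Lyve-1- replicate 3) to 81 (without Lyve-1+ replicate 2) with each library left out. The count at an adjusted p under 0.05, 84, was 333, 289, 270, 130 and 39 with DESeq2, no filter, the block, the age term and the 10-week libraries alone, and 19 to 153 for the same libraries with each library left out. The age count of 3 ran from 2 (without Lyve-1- replicate 3) to 35 (without Lyve-1+ replicate 2) with each 10-week library left out. With the 10-week libraries alone, in a count added after seeing the data, 4558 genes did not overlap where 1911 did not over all 6 libraries, as 2 against 2 overlap less readily. The cause of the other changes was not tested. DESeq2 size factors and total library size shifted the median over all genes tested by -0.03 and -0.07 (log2).

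Same-numbered libraries did not deviate together (correlations of -0.0462, -0.00183 and -0.147), and no Lyve-1- library correlated best with the Lyve-1+ library of its number, so the libraries share a number without a shown pairing. With the replicate block *Sparc* stood at 1.41 on the log2 scale (edgeR adjusted p = 0.0145). Among relatives and receptors the block brought *Svil*, *Itgav*, *Cd44* and *Stab1* to an adjusted p under 0.05, with *Stab1* called. With 6478007 counts in the shallowest library, a count of 0 there allows a level of up to 0.437 CPM, and *Tnc* rested on 13 counts in Lyve-1- replicate 2.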

Other observations

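Markers of other cell types were summed per library, as values with no test of their part in any difference. Mammary epithelial genes summed to 492, 57.9 and 261 CPM in the Lyve-1- libraries and 135, 139 and 85.7 CPM in the Lyve-1+ libraries. Pericyte and smooth muscle genes were at 97.2 to 264 CPM against 118 to 181 CPM. Blood endothelial genes were at 94.9 to 202 CPM against 93.0 to 349.5 CPM, with the highest sum in Lyve-1+ replicate 2. That library also had the most *Tnc*, *Sparcl1* and *Spp1*, a match picked with the values in view. *Sparcl1* was nearly as high in Lyve-1+ replicate 3, at 134 CPM, where the endothelial sum was 93.0 CPM. Adipocyte genes also summed highest in Lyve-1+ replicate 2, at 220.4 CPM, of which *Fabp4* alone gave 187 CPM. In that library *Adipoq*, *Plin1*, *Cidec* and *Lep* were at 0.144, 2.01, 1.25 and 0.0958 CPM. *Car3* and *Pck1* were highest in Lyve-1+ replicate 3, at 37.4 and 28.9 CPM, so the sum mostly follows *Fabp4*.

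Platelet genes, listed because platelets carry thrombospondin 1 and SPARC, were at 22.6 to 38.5 CPM in the Lyve-1- libraries and 7.43 to 16.6 CPM in the Lyve-1+ libraries, with *Ppbp* at 0 in 3 of 6 libraries. Of the 4 platelet genes tested, 0 had every Lyve-1+ library lower. The highest platelet sum was in Lyve-1- replicate 3, the shallowest library, with counts on 20353 genes. Neutrophil genes were at 247 CPM in Lyve-1+ replicate 3 and at most 63.4 CPM in the other libraries. *S100a9* and *S100a8* gave most of the former, at 173 and 46.0 CPM, and *Mmp8* was also highest there. *Retnlg* was instead highest in Lyve-1- replicate 3, at 24.2 against 13.5 CPM, and *Camp* and *Ngp* were at 0 in Lyve-1+ replicate 3. Monocyte genes were at 458 to 1102 CPM against 313 to 823 CPM. Lymphatic endothelial genes were at 14.6 to 60.2 CPM against 17.1 to 42.7 CPM. The highest of these sums was in Lyve-1- replicate 3, where *Prox1*, *Flt4*, *Mmrn1* and *Reln* had counts, all at 0 in the other Lyve-1- libraries. T cell genes were at 124 to 180.2 CPM against 48.0 to 195 CPM, with *Cd4* giving 159 CPM of the highest sum. B cell genes were at 3.02 to 29.6 CPM against 10.1 to 84.2 CPM.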
